A study of Mus musculus with 34 samples.

Results

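The comparison described here is that of the 2 lines of Mta123KO mouse ES cells, line 1 (titles MtaKO1_1 and MtaKO1_2) and line 2 (MtaKO2_1 and MtaKO2_2), which give 8 of the 34 RNA-seq libraries of the study. Members were chosen by label alone: the first digit after the genotype was read as the line and the last as the library, which left 4 libraries a line, 2 under each of 2 culture labels. The study asked what the 3 MTA proteins do in the NuRD complex, and the question here is how far 2 lines that lack all 3 of them diverge, and in which lineage programmes. The 8 Control libraries, 4 of line 1 and 4 of line 2, give a reference pair of lines without the triple deletion. Per the study's methods and strain table, Mta123KO cells are Mta1∆/∆ Mta2∆/- Mta3∆/∆, made by removing most Mta2 exons from both alleles of Mta1∆/∆ Mta3 flox/flox ES cells and then deleting Mta3 with Cre, and Control cells are a primary derived line that is Mta1+/∆ Mta3 flox/flox. Both are labelled 129/Ola. Control cells are not described as having gone through the Mta2 targeting and Mta3 deletion, so genotype and derivation history differ together. Comparisons with the Control line difference cannot tell them apart. The culture labels are 2iL, that is 2i+LIF on gelatin, and 48h in N2B27 without the inhibitors and LIF. The labels do not say whether a line is a clone or how its libraries were replicated, so p-values below measure the spread between libraries of a line only, and a difference between 2 lines is not a difference between genotypes.

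NuRD (Nucleosome Remodelling and Deacetylation) joins a chromatin remodelling ATPase to histone deacetylases, and the MTA proteins are the scaffold on which the deacetylases are assembled. ES cells without NuRD activity keep self-renewing but commit to lineages poorly, and the complex is known for keeping genes of other lineages at low levels. In the early mouse embryo the first of those lineages are trophoblast, which forms the placenta under factors such as Cdx2, Gata2 and Gata3 and is a simple epithelium rich in Krt8 and Krt18, and primitive endoderm. Imprinted genes, which are expressed from the allele of 1 parent, are a further class that is prominent in the placenta and often unstable in cultured ES cells.

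The culture labels are in doubt. The names of the deposited count tables give the opposite culture for all 16 libraries, and Nanog, a marker of the naive state kept by 2iL, was at 60.4 to 69.8 CPM (counts scaled to library size by TMM) in Mta123KO libraries labelled 2iL and at 522 to 854 CPM in those labelled 48h. Cultures are therefore named as labelled. A line difference with culture as a block does not depend on which label is right, and the interaction of line and culture only changes sign. Total gene counts were 40819833 to 54279779 in Mta123KO and 37855790 to 57602285 in Control. All 9 ES cell markers were detected in both lines, with summed levels of 1354 to 2419 CPM in line 1 and 1668 to 3238 CPM in line 2, while 8 fibroblast markers summed to 4.53 to 11.6 CPM and 7.23 to 9.98 CPM. Mta2 was at 8.99, 8.0, 10.4 and 9.56 CPM in line 1 and 5.12, 4.71, 6.52 and 6.61 CPM in line 2 (here and below, 4 values of a line are its 2 libraries labelled 2iL and then its 2 labelled 48h), compared with 111 to 202 CPM in Control. Mta1 and Mta3 kept more reads. Mta1 was at 18.8 to 29.9 CPM in line 1 and 15.5 to 19.8 CPM in line 2 (Control 23.4 to 48.6 CPM), and Mta3 at 18.7 to 23.7 and 9.52 to 16 CPM (Control 36.4 to 75 CPM). Whole-gene counts include exons outside the deleted part, so they do not check those deletions. The source of the remaining reads was not tested.

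To place the line difference on a scale, log2 CPM values were subtracted for each pair of libraries and the root mean square was taken over 24293 genes. Within a line and culture, pairs of Mta123KO libraries were 0.411 to 0.439 apart. Libraries of different Mta123KO lines under the same culture label were 0.743 to 0.817 apart, nearly as far as libraries of the same line under different culture labels (0.847 to 0.876). The Control lines stood in the same order at other spacings, with 0.414 to 0.512 within a line, 0.515 to 0.603 between lines and 1.18 to 1.28 between cultures. In Mta123KO, changing the line therefore moved the transcriptome almost as much as changing the culture, whereas in Control the culture step was about 2 times the line step. Line 2 was closer than line 1 to Control of the same culture label (1.06 to 1.15 against 1.21 to 1.31). Pairs share libraries and are not independent, so no test was made of these distances.

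**Figure D1:**
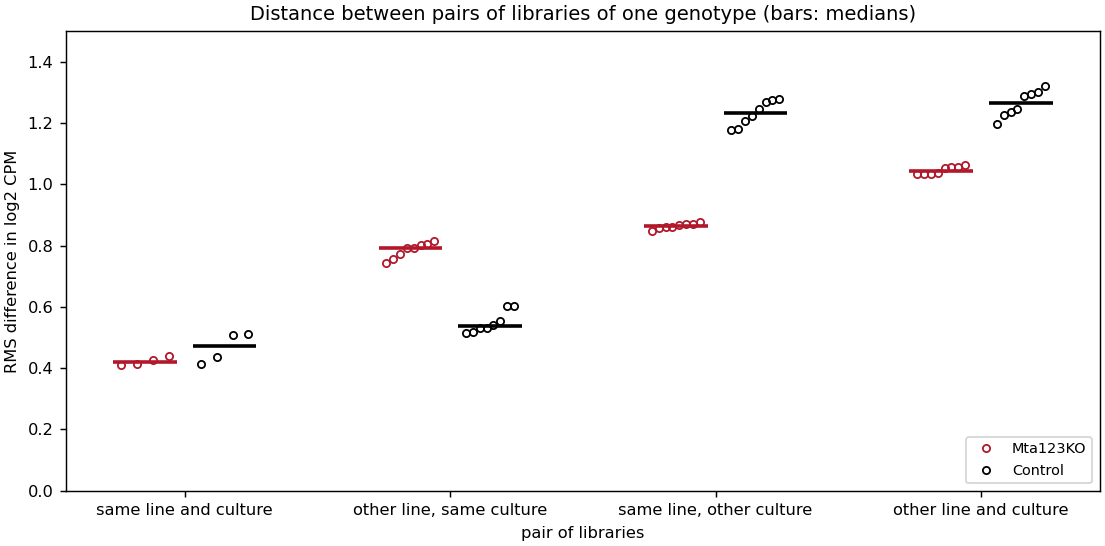
Distance between each pair of libraries of the same genotype, as the root mean square of log2 CPM differences (y axis), by the kind of pair (x axis). Open circles are pairs, red for Mta123KO and black for Control, and bars are medians. Mta123KO pairs from different lines under the same culture label lie at 0.743 to 0.817, above every Control pair of that kind (0.515 to 0.603).

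Genes were called where edgeR's quasi-likelihood test with culture as a block gave a p below 0.05 after Benjamini-Hochberg adjustment and a change of more than 1 in log2 in either direction; fold changes are line 1 over line 2. Of 23125 genes tested, 1614 were higher in Mta123KO line 1 (6.98%) and 1103 in line 2 (4.77%). Between the Control lines, 86 genes (0.381%) were higher in line 1 and 222 (0.983%) in line 2 of 22584 tested. The Control count in the second direction rested partly on single libraries and was 146 without library 1 of line 1 labelled 2iL and 112 without library 2 of line 2 labelled 2iL. Line numbers do not pair a Control line with an Mta123KO line, so a further test on all 16 libraries asked whether the Mta123KO line difference was larger than the Control line difference whichever way the lines are matched, which held for 4.97% of the genes tested, 705 higher in line 1 (2.9%) and 503 higher in line 2 (2.07%). Scaling on the spike-in RNAs in place of TMM shifted the median of all genes by 0.12 (log2) towards line 1 and changed the calls to 2013 and 871, so that 69.8% of calls rather than 59.4% were higher in line 1. In the test against the Control difference, that share moved from 58.4% to 72.8% (758 and 283 calls). Changes below are relative to the TMM median.

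**Figure D2:**
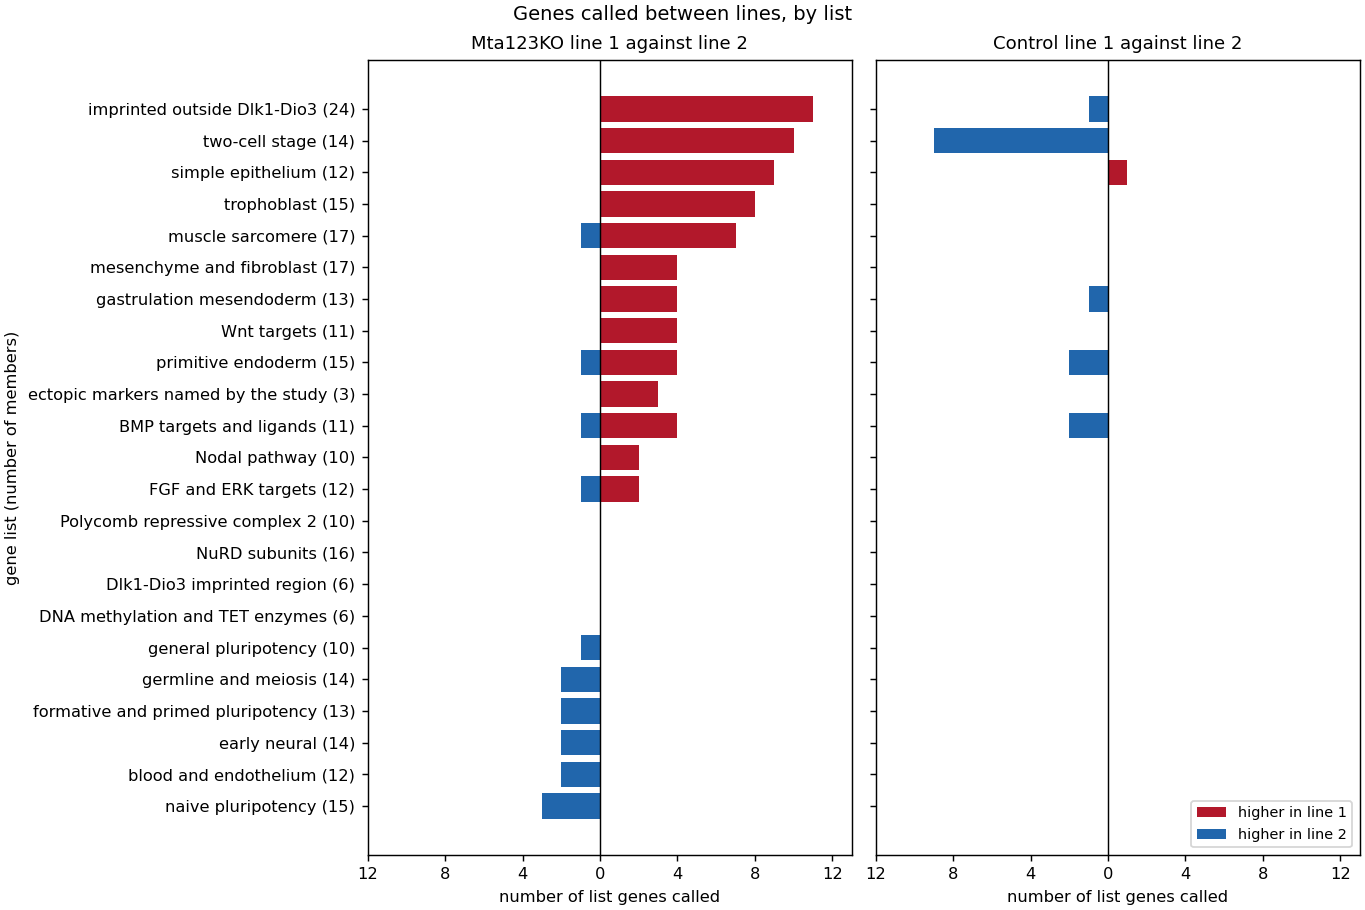
Number of genes called (x axis) in each gene list (y axis, with the number of members), for the Mta123KO lines (left) and the Control lines (right). Red bars to the right are genes higher in line 1 and blue bars to the left genes higher in line 2. Epithelial, trophoblast and imprinted genes are on the line 1 side in Mta123KO, with 9, 8 and 11 called, and pluripotency genes on the line 2 side, while in Control the 2-cell list holds 9 of the calls.

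Genes of simple epithelia were higher in Mta123KO line 1. Of 12 members of the list, all tested, 9 were called higher in line 1 (6.98% of all genes tested were) and none in line 2 (4.77%), with a median log2 fold change of 1.56 (-0.01 over all genes). Krt8 and Krt18, which pair to form the keratin filaments of simple epithelia, had the smallest standard errors of the 9. Krt8 (chr15:101996698-102004482, GRCm38) was at 151 and 178 CPM labelled 2iL and 326 and 350.2 CPM labelled 48h in line 1, and at 28.3 and 32.9 CPM labelled 2iL and 65.7 and 69.8 CPM labelled 48h in line 2 (log2 fold change 2.36 ± 0.07 SE, adjusted p = 4.7e-09). Krt18, the adjacent gene (chr15:102028180-102032027), was at 155 and 171 CPM labelled 2iL and 331 and 343 CPM labelled 48h in line 1, and at 26.7 and 27.3 CPM labelled 2iL and 57.6 and 59.6 CPM labelled 48h in line 2 (log2 fold change 2.55 ± 0.05 SE, adjusted p = 4.4e-10). All 4 libraries of line 1 were thus above all 4 of line 2 for both genes, and both lines were above Control, where Krt8 was at 4.15 to 6.9 CPM and Krt18 at 1.94 to 8.8 CPM. Within each culture label, line 1 was higher without overlap for 24.3% of all genes tested. The keratins Krt7 (2.32 ± 0.11) and Krt19 (1.73 ± 0.10) and the desmosomal Dsp (1.79 ± 0.10) were also higher in line 1. So were the tight junction claudins Cldn3 (2.33 ± 0.12), Cldn4 (1.13 ± 0.09) and Cldn7 (1.39 ± 0.09). Against Control, Cldn3 was called lower in line 2 and was not called in line 1. Krt20, the other gene called, was low at 2.52, 2.1, 0.393 and 0.242 CPM in line 1 and 1.26, 0.839, 0.0447 and 0.128 CPM in line 2 (log2 fold change 1.27 ± 0.28 SE, adjusted p = 0.0033). Epcam and Cdh1, adhesion molecules that ES cells themselves express, were not called (0.33 and 0.38). In Control, Dsp was the 1 member called between lines (1.41, adjusted p = 2.2e-05; 0.381% of all genes were called in that direction), and the Mta123KO difference exceeded the Control difference for 7 members (2.9% of all genes), Krt7, Krt8, Krt18, Krt19, Cldn3, Cldn4 and Cldn7. In bulk RNA a larger share of cells expressing a programme and a higher level per cell cannot be told apart, here and below.

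The promoters of the adjacent keratin genes are shown because neither gene overlaps between the lines in any library, with that of Phlda2, the imprinted gene described below, and that of Rhox13, the gene furthest in the other direction. Each is the RefSeq window (GRCm38.p6) from 250 bases before to 50 after the start annotated by RefSeq, written 5′ to 3′ on the gene's strand. The gene spans given in the text are from GENCODE. For Krt8, Krt18 and Phlda2 their ends are not at the RefSeq start from which distances are counted. Capitals mark the letters AGATAA, which GATA factors bind, or TATAAA, the TATA box, on either strand.
Krt8: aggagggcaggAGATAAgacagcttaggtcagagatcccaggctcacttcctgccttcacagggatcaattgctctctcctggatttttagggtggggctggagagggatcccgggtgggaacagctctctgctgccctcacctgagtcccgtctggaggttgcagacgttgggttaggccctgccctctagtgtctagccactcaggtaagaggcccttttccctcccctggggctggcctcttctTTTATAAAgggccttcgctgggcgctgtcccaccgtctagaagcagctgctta
Krt18: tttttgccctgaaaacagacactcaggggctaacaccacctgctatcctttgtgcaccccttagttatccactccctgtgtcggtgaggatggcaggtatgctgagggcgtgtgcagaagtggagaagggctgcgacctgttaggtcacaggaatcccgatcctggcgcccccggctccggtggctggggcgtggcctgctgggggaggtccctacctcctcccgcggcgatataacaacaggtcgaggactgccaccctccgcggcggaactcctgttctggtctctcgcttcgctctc
Phlda2: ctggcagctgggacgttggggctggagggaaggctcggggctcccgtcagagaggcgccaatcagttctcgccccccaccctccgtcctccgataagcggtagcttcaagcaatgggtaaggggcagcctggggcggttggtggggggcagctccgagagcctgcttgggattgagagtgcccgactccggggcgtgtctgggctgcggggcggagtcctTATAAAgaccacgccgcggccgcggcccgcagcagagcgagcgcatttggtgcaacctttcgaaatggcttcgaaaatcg
Rhox13: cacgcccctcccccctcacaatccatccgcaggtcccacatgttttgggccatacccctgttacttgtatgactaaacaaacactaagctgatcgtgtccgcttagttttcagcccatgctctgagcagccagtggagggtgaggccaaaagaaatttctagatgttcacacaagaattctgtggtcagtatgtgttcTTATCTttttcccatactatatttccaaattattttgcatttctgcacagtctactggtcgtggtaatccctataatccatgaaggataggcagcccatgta
The Krt8 window (chr15:102004293-102004592, minus strand) holds AGATAA beginning 239 bases before the start and TATAAA at the start itself, where the reverse-strand and forward matches overlap and begin 3 and 1 bases before it. The Krt18 window (chr15:102027966-102028265, plus strand) holds neither motif. The Phlda2 window (chr7:143502475-143502774, minus strand) holds TATAAA beginning 30 bases before the start, and the Rhox13 window (chrX:38120590-38120889, plus strand) holds AGATAA on the reverse strand beginning 52 bases before it. Over all 32851 RefSeq windows of this length, AGATAA was found in 11.2% and TATAAA in 13.6%. Among windows of genes tested, AGATAA was in 7.25%, compared with 9.49% of 1127 windows of genes called higher in line 1 and 9.54% of 849 windows of genes called higher in line 2, so its share did not separate the directions. GCCNNNGGC, the letters bound by TFAP2 factors, was in 24.4% of line 1 windows, 16.3% of line 2 windows and 23.3% of the windows of genes tested. These shares describe letters in windows and not bound sites.

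Trophoblast genes were also higher in line 1. Of 15 members, all tested, 8 were called higher in line 1 and none in line 2, with a median log2 fold change of 1.27. Over all genes tested, 6.98% and 4.77% were called in these directions. Between the Control lines edgeR called no member (3 had an unadjusted p under 0.05) and DESeq2 none. Gata2, a factor of trophoblast giant cells, was at 35.9 and 43.3 CPM labelled 2iL and 78.7 and 94.7 CPM labelled 48h in line 1, and at 9.05 and 9.06 CPM labelled 2iL and 13 and 17.9 CPM labelled 48h in line 2 (log2 fold change 2.31 ± 0.12 SE, adjusted p = 2.6e-07). Ascl2, needed for the spongiotrophoblast, was at 22.9, 24.9, 29.9 and 26.8 CPM in line 1 and 4.39, 3.7, 3.73 and 4.76 CPM in line 2 (log2 fold change 2.64 ± 0.10 SE, adjusted p = 2.9e-08), and Control libraries held 0.689 to 2.42 CPM. Both genes separated the lines under either culture label, as did 24.3% of all genes tested with line 1 higher. Hand1, which drives giant cell differentiation, was also culture dependent, at 35.1 and 28.2 CPM labelled 2iL and 1.87 and 1.34 CPM labelled 48h in line 1, and at 4.2 and 4.09 CPM labelled 2iL and 0.179 and 0.164 CPM labelled 48h in line 2 (log2 fold change 2.96 ± 0.14 SE, adjusted p = 1.1e-07). Cdx2, the factor that specifies the trophectoderm, remained low at 3.92, 3.32, 3.07 and 3.45 CPM in line 1 and 0.583, 0.301, 0.603 and 0.84 CPM in line 2 (log2 fold change 2.55 ± 0.23 SE, adjusted p = 7.9e-06), with line 2 within the Control range of 0.28 to 1.17 CPM. Thus the line 1 libraries were the only Mta123KO libraries above Control for Cdx2. Plac1 (2.70 ± 0.18), Dlx3 (2.03 ± 0.17), Gata3 (1.37 ± 0.13) and Esx1 (1.27 ± 0.15), all expressed in placenta or trophectoderm, rose in line 1, and the test against the Control difference held for Cdx2, Gata2, Hand1, Ascl2, Esx1 and Dlx3.

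The trophoblast stem cell factors Eomes and Elf5 did not follow this pattern. Eomes was at 12.8 and 10.4 CPM labelled 2iL and 3.77 and 3.89 CPM labelled 48h in line 1, and at 9.42 and 8.67 CPM labelled 2iL and 7.93 and 6.88 CPM labelled 48h in line 2 and was not called (-0.26, adjusted p = 0.35). Elf5 was at 3.07 and 3.82 CPM labelled 2iL and 1.06 and 1.1 CPM labelled 48h in line 1, and at 0.874 and 1.25 CPM labelled 2iL and 1.21 and 1.7 CPM labelled 48h in line 2 and was not called either (0.67, adjusted p = 0.16), except in a fit without library 2 of line 2 labelled 48h, which gave 1.01. For both genes line 1 was the higher line among libraries labelled 2iL and the lower among those labelled 48h, and the interaction of line and culture was called (Eomes -1.28, adjusted p = 0.00047; Elf5 -2.10, adjusted p = 0.0016); 1.13% of all genes were called in that direction. The AP-2 factors Tfap2c and Tfap2a, expressed in trophoblast, and Ets2, a regulator of trophoblast growth, were nearer to the threshold without passing it (0.72, 0.91 and 0.92). Against the Control libraries, which both comparisons share, 13 trophoblast members were called higher in line 1 (15.6% of all genes tested were) and 11 in line 2 (12.6% of all genes), with medians of 3.07 and 1.68. Among libraries labelled 2iL, the mean levels of 14 of the 15 members ranked line 1, line 2, Control from high to low, as did those of 10 of 15 labelled 48h. That order was found for 24.9% and 24.3% of all 24293 genes.

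**Figure D3:**
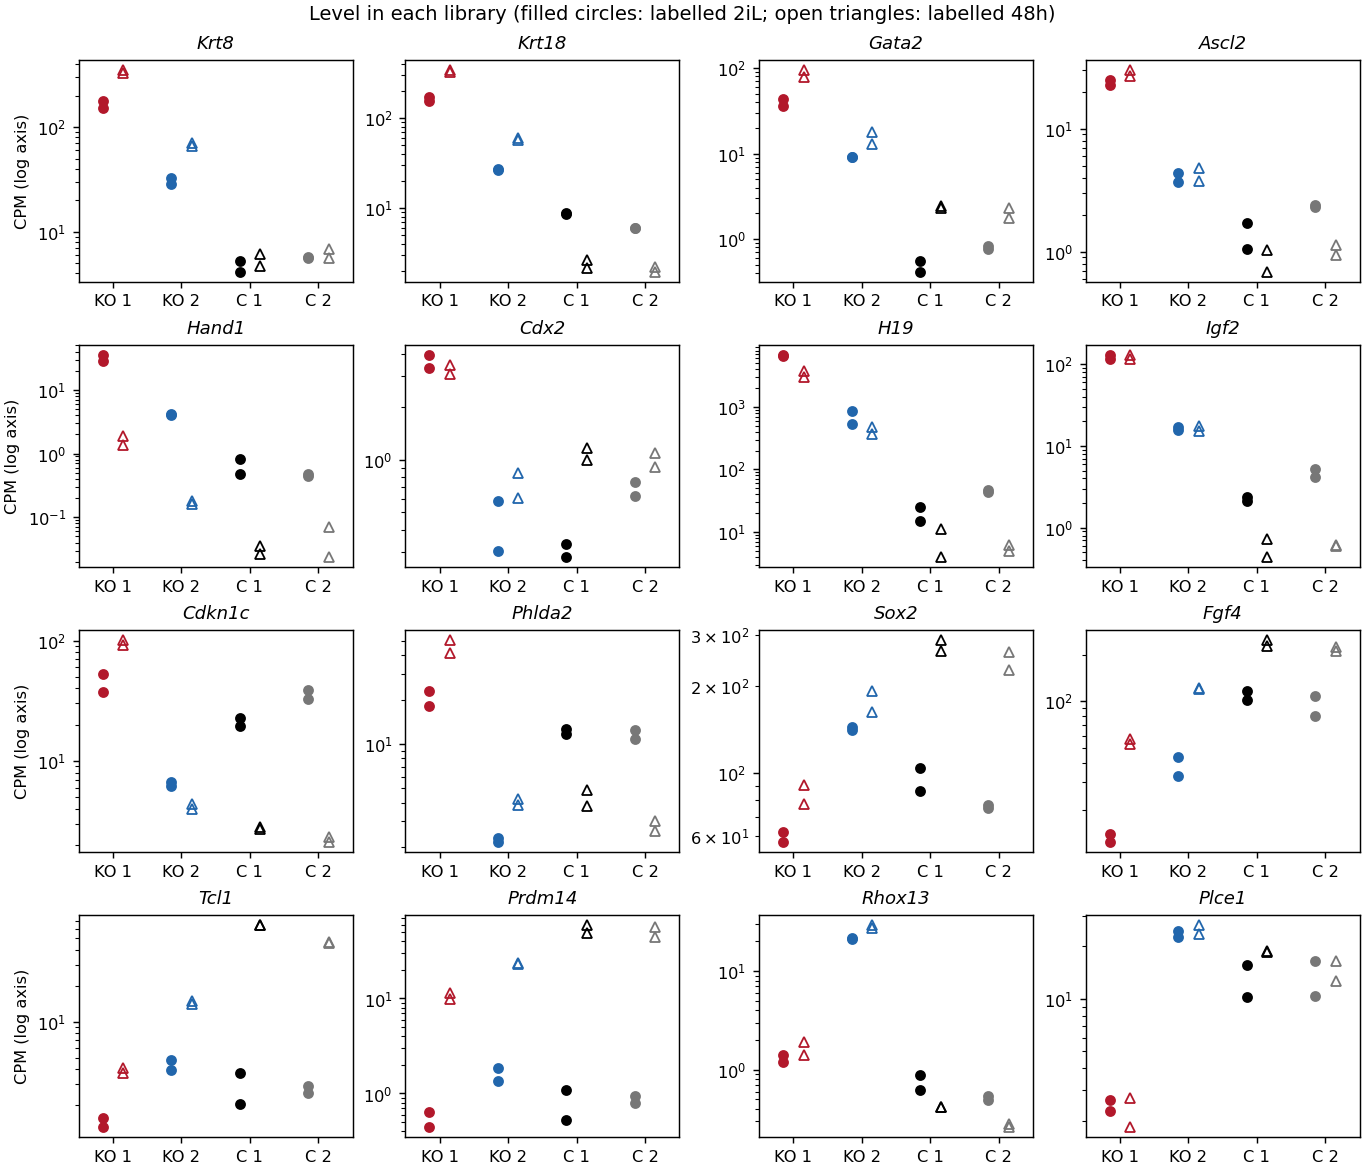
Level of 16 genes in each library, in CPM on log axes that differ between panels (y axis), for Mta123KO lines 1 and 2 (KO 1, KO 2) and Control lines 1 and 2 (C 1, C 2; x axis). Filled circles are libraries labelled 2iL and open triangles libraries labelled 48h. In every panel the 2 Mta123KO lines do not overlap within a culture label, as for 24.3% of all genes tested with line 1 higher and 22.3% with line 2 higher. H19 is at 3066 to 6754 CPM in line 1 and 373 to 847 CPM in line 2.

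Of imprinted genes outside the Dlk1-Dio3 region, the longest list, 11 of 24 members were called higher in line 1 and none in line 2 (median 0.54). Over all genes tested, 6.98% and 4.77% were called in these directions. Between the Control lines 1 member was called, Peg10, in the direction of line 2 (0.983% of all genes were). In the distal chromosome 7 cluster, the non-coding RNA H19 (chr7:142575529-142578143) was at 6635 and 6754 CPM labelled 2iL and 3066 and 3819 CPM labelled 48h in line 1, and at 540.0 and 847 CPM labelled 2iL and 373 and 476 CPM labelled 48h in line 2 (log2 fold change 3.14 ± 0.14 SE, adjusted p = 1e-07). This is a fold of 8.8, and both lines were above Control, where H19 was at 3.99 to 46.9 CPM. Its neighbour Igf2, a growth factor of the embryo and placenta (chr7:142650766-142666816), was at 116, 128, 128 and 117 CPM in line 1 and 15.7, 17, 15.3 and 17.7 CPM in line 2 (log2 fold change 2.89 ± 0.07 SE, adjusted p = 1.2e-09), at similar levels under both culture labels. H19 and Igf2 are normally expressed from opposite parental alleles, and both were higher in line 1. Further along, the cell cycle inhibitor Cdkn1c (chr7:143458339-143461050) was at 37.3 and 52.3 CPM labelled 2iL and 92.1 and 100.5 CPM labelled 48h in line 1, and at 6.68 and 6.2 CPM labelled 2iL and 4.36 and 3.98 CPM labelled 48h in line 2 (log2 fold change 3.65 ± 0.30 SE, adjusted p = 4.6e-06), and Phlda2, which restrains placental growth (chr7:143501545-143503150; promoter above), was at 18, 22.8, 41.6 and 50.6 CPM in line 1 and 2.31, 2.17, 3.86 and 4.27 CPM in line 2 (log2 fold change 3.35 ± 0.12 SE, adjusted p = 1.4e-08). Control libraries labelled 2iL held Cdkn1c at 19.6 to 38.6 CPM and Phlda2 at 10.9 to 12.7 CPM, so that for these genes line 2 lay below Control of that label. Kcnq1ot1, the non-coding RNA that silences Cdkn1c and Phlda2 in cis on the paternal allele, was not called (-0.24, adjusted p = 0.15).

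Members of some other imprinted clusters were also called higher in line 1, while 13 of the 24 list members were not called. Peg10, a retrotransposon-derived gene needed for the placenta, was at 1910.4 and 2215 CPM labelled 2iL and 3412 and 3567 CPM labelled 48h in line 1, and at 775 and 819 CPM labelled 2iL and 423 and 512 CPM labelled 48h in line 2 (log2 fold change 2.13 ± 0.26 SE, adjusted p = 7.5e-05), and its neighbour Sgce rose by a log2 fold change of 1.17 ± 0.11. Peg10 also differed between the Control lines (-1.60, adjusted p = 0.00014), and the Mta123KO difference exceeded that one (adjusted p = 0.018). Peg3 was at 1105, 1159, 739 and 735 CPM in line 1 and 313, 326, 149 and 182 CPM in line 2 (log2 fold change 1.98 ± 0.08 SE, adjusted p = 6.8e-08) and its neighbour Zim1 rose by 1.38 ± 0.23. Slc38a4, an amino acid transporter of the placenta, rose by 1.27 ± 0.08. Plagl1, a zinc finger factor, rose by 1.10 ± 0.12, a call that was lost (1.0) without library 2 of line 2 labelled 2iL. Airn, the RNA antisense to Igf2r, rose by 2.57 ± 0.24 while Igf2r did not pass the threshold (0.18); whether counting used strand is not given in the sources used here, so reads of the overlapping pair may not be cleanly split. Grb10, a growth inhibitor, leaned to line 2 under the fold threshold (-0.58, adjusted p = 0.00073). The test against the Control difference held for 9 of the 11, all but Zim1 and Sgce. Against Control, 14 members were called higher and 1 lower (8.11% of all genes were lower) in line 1, and 7 higher and 2 lower (6.47%) in line 2. None of the 6 members of the Dlk1-Dio3 region was called between the Mta123KO lines by edgeR or DESeq2, although 2 had an unadjusted p under 0.05. By label, 1 member was called higher in line 1 among libraries labelled 2iL and none labelled 48h, and for Dio3, a deiodinase, the Mta123KO difference exceeded the Control difference by either tool (3.14, 3.3, 4.13 and 4.97 CPM in line 1 and 1.09, 0.581, 4.4 and 4.16 CPM in line 2; adjusted p = 0.032 by edgeR).

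The study names Ebf4, Hcn4 and Nobox as genes expressed out of place, and all 3 were called higher in line 1 (6.98% of all genes tested were). It reports them by RT-qPCR, and does not state whether they were chosen on these RNA-seq libraries. Their direction against Control is therefore not taken as independent evidence. Nobox, an oocyte factor, was at 6.72, 6.39, 6.24 and 6.28 CPM in line 1 and 0.971, 1.03, 1.16 and 1.35 CPM in line 2 (log2 fold change 2.49 ± 0.13 SE, adjusted p = 1.8e-07). Ebf4, a relative of the early B cell factors, was at 17.2, 16.4, 18.7 and 19.2 CPM in line 1 and 7.19, 6.76, 7.93 and 8.62 CPM in line 2 (log2 fold change 1.22 ± 0.07 SE, adjusted p = 3.4e-07). Hcn4, the pacemaker channel of the heart, was at 18.2 and 21.4 CPM labelled 2iL and 3.07 and 3.21 CPM labelled 48h in line 1, and at 6.34 and 6.78 CPM labelled 2iL and 2.19 and 2.76 CPM labelled 48h in line 2 (log2 fold change 1.05 ± 0.21 SE, adjusted p = 0.0022), so that most of its difference was in the libraries labelled 2iL. Its call was lost without library 2 of line 1 (0.88), library 1 of line 2 (0.89) or library 2 of line 2 (0.92) labelled 2iL. Control held 0.0467 to 0.457 CPM of Nobox, 0.371 to 0.894 CPM of Ebf4 and 0.406 to 0.931 CPM of Hcn4, below every Mta123KO library of either line. The Mta123KO difference exceeded the Control line difference for Nobox and Ebf4 and was not called larger for Hcn4 (adjusted p = 0.81).

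Sarcomere genes of striated muscle were called higher in line 1 for 7 of 17 members, of which 16 were tested, and in line 2 for 1 (median 0.63). For the lists of this paragraph, 6.98% of all genes tested were called higher in line 1 and 4.77% in line 2. The sarcomere count in line 2 is near that share. The Mta123KO difference exceeded the Control line difference for 2 of the 7, Tnnt1 and Myl4 (2.9% of all genes), and for the member in line 2 (2.07%). Tnnt3, a fast skeletal troponin, was at 37.5 and 36.2 CPM labelled 2iL and 2.06 and 2.31 CPM labelled 48h in line 1, and at 5.78 and 7.64 CPM labelled 2iL and 0.603 and 0.621 CPM labelled 48h in line 2 (log2 fold change 2.27 ± 0.14 SE, adjusted p = 5e-07). Acta1, skeletal actin, was at 5.98, 6.82, 8.94 and 9.4 CPM in line 1 and 0.752, 0.861, 2.28 and 2.37 CPM in line 2 (log2 fold change 2.39 ± 0.18 SE, adjusted p = 2.2e-06), and Actc1, cardiac actin, at 4.64, 5.06, 14.9 and 14.6 CPM in line 1 and 0.558, 0.667, 5.58 and 4.54 CPM in line 2 (log2 fold change 2.04 ± 0.23 SE, adjusted p = 3.4e-05). These 3 were at 0 to 0.186 CPM, 0 to 0.999 CPM and 0 to 0.0415 CPM in Control. Both lines were above Control for Tnnt3 and Actc1, while line 2 overlapped the Control range for Acta1. Tnnt1, Tnni2, Tnnc1 and Myl4 were also higher in line 1 (1.21 to 2.21). Against Control, Tnnc1 was called lower in line 2 and was not called in line 1. Embryonic myosin Myh3 went the other way, at 0.657, 0.836, 0.832 and 0.769 CPM in line 1 and 3.33, 4.35, 1.23 and 1.97 CPM in line 2 (log2 fold change -1.73 ± 0.29 SE, adjusted p = 0.00058), with Control at 1.1 to 5.54 CPM. Of 17 mesenchyme and fibroblast genes, 13 of them tested, 4 were higher in line 1, namely the smooth muscle genes Tagln (2.03 ± 0.11) and Acta2 (2.37 ± 0.36), the factor Snai2 (1.45 ± 0.23) and Postn, which was under 0.4 CPM in every library and lost its call without any of 4 libraries (library 2 of line 1 or of line 2 labelled 2iL, library 1 of line 1 or library 2 of line 2 labelled 48h; 1.10 to 1.29). Tagln was at 37.7, 43.2, 40.0 and 35.2 CPM in line 1 and 7.91, 8.37, 11.6 and 10.4 CPM in line 2, while Thy1, Col1a1 and Col3a1 were not called and Dcn, Lum and Col1a2 had too few reads to be tested. The test against the Control difference held for Tagln, Acta2 and Snai2.

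Among genes that mark gastrulation, 4 of 13 members, 9 of them tested, were higher in line 1 and none in line 2. For both lists of this paragraph, the share of all genes tested was 6.98% towards line 1 and 4.77% towards line 2. Wnt3, the ligand that starts primitive streak formation, was at 17.9 and 13.3 CPM labelled 2iL and 9.22 and 7.14 CPM labelled 48h in line 1, and at 2.09 and 1.61 CPM labelled 2iL and 1.16 and 1.22 CPM labelled 48h in line 2 (log2 fold change 2.93 ± 0.15 SE, adjusted p = 2e-07), above Control at 0.24 to 0.976 CPM. T (Brachyury), its target in the streak, was at 0.636, 0.452, 4.09 and 2.57 CPM in line 1 and 0.34, 0.108, 1.63 and 1.3 CPM in line 2 (log2 fold change 1.22 ± 0.27 SE, adjusted p = 0.0035), which overlapped the Control range of 0.12 to 2.73 CPM. Foxc1 (2.38 ± 0.34) was at 0.462 to 0.954 CPM in line 1 and at most 0.201 CPM in line 2, and Lhx1 (1.84 ± 0.45) was under 0.5 CPM in every Mta123KO library and was not called without library 1 of line 1 labelled 2iL (1.51). The test against the Control difference held for Wnt3 and Foxc1 and not for T and Lhx1. Primitive endoderm genes were mixed, with 4 of 15 members (14 tested) higher in line 1 and 1 in line 2 (median 0.55). Between the Control lines, none was higher in line 1 and 2 in line 2 (0.381% and 0.983% of all genes). The basement membrane chains Lamb1 (1.19 ± 0.04) and Col4a2 (1.09 ± 0.11) rose in line 1, whereas Lama1, the laminin chain typical of parietal endoderm, was at 3.62 and 4.84 CPM labelled 2iL and 9.38 and 9.8 CPM labelled 48h in line 1, and at 6.97 and 5.92 CPM labelled 2iL and 43.7 and 41.8 CPM labelled 48h in line 2 (log2 fold change -1.48 ± 0.26 SE, adjusted p = 0.00078). Foxa2 was at 0.742, 1.49, 0.647 and 0.571 CPM in line 1 and 0.17, 0.215, 0.112 and 0.237 CPM in line 2 (log2 fold change 2.14 ± 0.35 SE, adjusted p = 0.00053). Gata6 was under 0.9 CPM in every Mta123KO library (1.14 ± 0.25; 0.99 and not called without library 2 of line 2 labelled 48h), lower than in some Control libraries (0.0706 to 7.1 CPM). Of the primitive endoderm calls, those of Lamb1 and Lama1 passed the test against the Control difference.

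Called genes of the Wnt and BMP lists were mostly higher in line 1. For the lists of this paragraph, 6.98% of all genes tested were called higher in line 1 and 4.77% in line 2. Of 11 Wnt targets, 4 were higher in line 1 and none in line 2 (median 0.60). Dkk1, a secreted Wnt inhibitor and target, was at 3.35 and 3.12 CPM labelled 2iL and 8.34 and 7.51 CPM labelled 48h in line 1, and at 0.194 and 0.172 CPM labelled 2iL and 1.97 and 1.44 CPM labelled 48h in line 2 (log2 fold change 2.77 ± 0.28 SE, adjusted p = 1.9e-05), and Rnf43, a receptor ubiquitin ligase, at 1.08, 1.24, 10.9 and 11.2 CPM in line 1 and 0.752, 0.667, 2.14 and 2.96 CPM in line 2 (log2 fold change 1.63 ± 0.25 SE, adjusted p = 0.00037). Lgr5, a stem cell receptor for R-spondins, was at 0.148, 0.0904, 3.37 and 6.53 CPM in line 1 and 0.194, 0.194, 0.424 and 0.785 CPM in line 2 (log2 fold change 2.29 ± 0.56 SE, adjusted p = 0.0067), with line 1 the higher line labelled 48h and line 2 labelled 2iL, and Cdx1, a caudal factor, rose by 1.27 ± 0.31. Of 11 BMP targets and ligands, 4 were higher in line 1 and 1 in line 2 (median 0.80). The BMP target Id2 was at 75.3, 61.5, 67.5 and 70.2 CPM in line 1 and 22.8, 18.7, 21.3 and 19.8 CPM in line 2 (log2 fold change 1.72 ± 0.08 SE, adjusted p = 1.2e-07), above the Control range of 1.64 to 3.67 CPM in both lines. Msx2 was at 7.5, 8.34, 9.82 and 11.9 CPM in line 1 and 1.19, 1.38, 2.43 and 2.72 CPM in line 2 (log2 fold change 2.31 ± 0.14 SE, adjusted p = 4.7e-07) and Id1 rose by 1.79 ± 0.17, although the Control lines differed in Id1 too (-1.30, adjusted p = 0.0025) and the Mta123KO difference was not called larger (adjusted p = 0.32). The ligands moved in opposite directions: Bmp7 was at 19.2, 22.8, 11.1 and 9.71 CPM in line 1 and 9.35, 10.6, 5.32 and 5.31 CPM in line 2 (log2 fold change 1.01 ± 0.09 SE, adjusted p = 5.5e-06; 0.95 to 0.98 and not called without library 2 of line 1 labelled 2iL, library 1 of line 2 labelled 2iL or library 1 of line 1 labelled 48h), and Bmp4 at 4.07, 3.34, 1.41 and 1.69 CPM in line 1 and 6.99, 5.77, 7.22 and 5.22 CPM in line 2 (log2 fold change -1.35 ± 0.23 SE, adjusted p = 0.00071). Bmp4 was also called between the Control lines, higher in Control line 2. In the Nodal list, Lefty2, an inhibitor and target of Nodal, was at 35.7, 46.4, 127 and 76 CPM in line 1 and 18.1, 20.1, 34.8 and 18.3 CPM in line 2 (log2 fold change 1.52 ± 0.24 SE, adjusted p = 0.00045). In the FGF and ERK list of 12, Fgfr3 (1.26 ± 0.17) and Fos (1.59 ± 0.16) were higher in line 1 and the ERK phosphatase Dusp4 in line 2 (-1.05 ± 0.21; -0.84 and -0.85, not called, without library 2 of line 1 or library 1 of line 2 labelled 2iL). Against the Control difference, Cdx1, Dkk1, Bmp7, Id2, Msx2, Lefty2, Fgfr3 and Fos passed and Rnf43, Lgr5, Id1, Bmp4 and Dusp4 did not. The Wnt target Notum passed with line 2 higher, although it was not called between the Mta123KO lines over both culture labels.

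Pluripotency genes leaned the other way by their medians. Of 15 naive pluripotency genes, all tested, 3 were called higher in line 2 and none in line 1 (median -0.38). Of 10 general pluripotency genes 1 was called, Sox2 (median -0.33). Over all genes tested, 4.77% were called higher in line 2, and the count of the general list is near that share. No member of either list was called between the Control lines by edgeR (unadjusted p under 0.05 for 4 and 5) or DESeq2. Sox2, a core pluripotency factor, was at 62 and 57.4 CPM labelled 2iL and 90.9 and 78 CPM labelled 48h in line 1, and at 144 and 140.4 CPM labelled 2iL and 192 and 162 CPM labelled 48h in line 2 (log2 fold change -1.17 ± 0.08 SE, adjusted p = 7.8e-07). Line 1 was below every Control library of its culture label and line 2 above those labelled 2iL (75.4 to 104 CPM) and below those labelled 48h (228 to 289 CPM). Fgf4, the ligand that primes ES cells to differentiate and a target of Sox2 and Pou5f1, was at 14 and 12.4 CPM labelled 2iL and 56.8 and 53.3 CPM labelled 48h in line 1, and at 43.8 and 33 CPM labelled 2iL and 122 and 120.5 CPM labelled 48h in line 2 (log2 fold change -1.34 ± 0.11 SE, adjusted p = 3.3e-06). Prdm14, a repressor that maintains the naive state, was at 0.445 and 0.633 CPM labelled 2iL and 9.84 and 11.3 CPM labelled 48h in line 1, and at 1.36 and 1.85 CPM labelled 2iL and 22.9 and 23.4 CPM labelled 48h in line 2 (log2 fold change -1.25 ± 0.13 SE, adjusted p = 2.5e-05), and Tcl1, a coactivator of Akt, at 1.57 and 1.31 CPM labelled 2iL and 4.07 and 3.71 CPM labelled 48h in line 1, and at 3.93 and 4.75 CPM labelled 2iL and 14.8 and 14.1 CPM labelled 48h in line 2 (log2 fold change -1.77 ± 0.11 SE, adjusted p = 7.2e-07). The 4 genes separated the lines under both culture labels, as did 22.3% of all genes tested with line 2 higher. Pou5f1 (-0.35, adjusted p = 0.0083), Klf4 (-0.32, adjusted p = 0.0046) and Klf2 (-0.75, adjusted p = 2.6e-05) differed by less than the fold threshold. Nanog (-0.28, adjusted p = 0.1) and Esrrb (-0.14, adjusted p = 0.36) were higher in line 2 among libraries labelled 48h and slightly higher in line 1 among those labelled 2iL (Nanog at 69.8 and 67.3 CPM labelled 2iL and 522 and 544 CPM labelled 48h in line 1, and at 60.4 and 63.7 CPM labelled 2iL and 832 and 854 CPM labelled 48h in line 2).

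Of 13 formative and primed genes, 2 were higher in line 2 (median -0.76). For this list and the others of this paragraph, the share of all genes tested called in that direction was 4.77%. Foxd3, a factor of the exit from the naive state, was at 0.551 and 0.678 CPM labelled 2iL and 2.68 and 2.77 CPM labelled 48h in line 1, and at 7.33 and 5.79 CPM labelled 2iL and 7.06 and 4.75 CPM labelled 48h in line 2 (log2 fold change -2.07 ± 0.38 SE, adjusted p = 0.0012). Sox3 was under 1 CPM in every Mta123KO library (-1.36 ± 0.46) and was not called without library 1 or 2 of line 1 labelled 2iL, library 1 or 2 of line 2 labelled 2iL, or library 2 of line 2 labelled 48h (-1.27 to -1.38). The early neural list held 2 calls of 14 members, 11 of them tested. Sox11, a SoxC factor of neural progenitors, was at 15.9, 15.2, 14.5 and 12.9 CPM in line 1 and 39.9, 37.4, 25.1 and 23.6 CPM in line 2 (log2 fold change -1.08 ± 0.10 SE, adjusted p = 9.6e-06), and Map2, a neuronal microtubule protein, at 1.46, 2.96, 0.554 and 0.439 CPM in line 1 and 5.24, 5.68, 2.55 and 2.7 CPM in line 2 (log2 fold change -1.74 ± 0.26 SE, adjusted p = 0.00026). Neural genes that were tested and not called include Nes (0.05), Pax6 (0.50) and Cdh2 (-0.47). For Nes the sign changed when library 1 of either line labelled 2iL was left out (-0.06 in each case). Germline genes were higher in line 2 for 2 of 14 members, Dazl (-1.08 ± 0.14; -0.96 and not called without library 2 of line 1 labelled 48h), which promotes translation in germ cells, and Asz1, of the piRNA pathway, at 0.339, 0.339, 0.323 and 0.286 CPM in line 1 and 1.92, 1.42, 1.27 and 1.9 CPM in line 2 (log2 fold change -2.34 ± 0.22 SE, adjusted p = 1.2e-05). Of 12 blood and endothelial genes, 9 of them tested, the receptor Kdr (-1.41 ± 0.15) and the adhesion molecule Pecam1 (-1.24 ± 0.06) were higher in line 2. Of the genes of this and the preceding paragraph called higher in line 2, the test against the Control difference held for all but Sox3 and Kdr.

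By size rather than by list, the protein-coding genes furthest towards line 1, with at least 1 CPM in that line and no overlap within a culture label, (as for 24.3% of all genes tested, and 22.3% with line 2 higher; 9.89% and 8.95% between the Control lines) included Tbx20, Gm13102, Obox6, Nnmt, Pramel4, Nkx2-3, Irx4, Cdkn1c and AA792892 (log2 fold changes 3.56 to 4.31). Tbx20, a T-box factor of the heart, was at 13.8, 11, 8.92 and 8.59 CPM in line 1 and 0.388, 0.538, 0.648 and 0.493 CPM in line 2 (log2 fold change 4.31 ± 0.18 SE, adjusted p = 5.1e-08) and Irx4, a factor of the ventricle, at 5.74, 5.15, 3.4 and 4.81 CPM in line 1 and 0.243, 0.689, 0.201 and 0.347 CPM in line 2 (log2 fold change 3.66 ± 0.26 SE, adjusted p = 1.4e-06). Line 2 was within or near the Control ranges for these genes (0.24 to 1.75 CPM and 0.18 to 0.333 CPM), and line 1 was above them. Nkx2-3, Pramel4, Gm13102 and Obox6 rested on 13 to 19 reads summed over the line 2 libraries, and Pramel4, Gm13102 and Obox6 have close copies between which reads may be split. AA792892 also differed between the Control lines (-2.63).

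The 10 genes furthest towards line 2 were Rhox13, Gm10772, Inhbe, Kcnh8, Slfn8, Plce1, Slfn9, Acot3, Iqca and Trpa1 (-4.07 to -2.88). Rhox13, an X-linked homeobox gene of the germline (promoter above), was at 1.4 and 1.2 CPM labelled 2iL and 1.41 and 1.91 CPM labelled 48h in line 1, and at 21 and 21.7 CPM labelled 2iL and 29.2 and 27.5 CPM labelled 48h in line 2 (log2 fold change -4.07 ± 0.10 SE, adjusted p = 1.2e-09), and Control at 0.264 to 0.893 CPM. Here line 2 stood apart and line 1 was nearer to Control. Plce1, a phospholipase C, was at 2.29, 2.62, 1.85 and 2.7 CPM in line 1 and 22.5, 24.6, 23.7 and 26.4 CPM in line 2 (log2 fold change -3.37 ± 0.11 SE, adjusted p = 1e-08) with Control at 10.3 to 18.8 CPM, and Slfn9, a schlafen gene with close copies, at 2.59, 1.72, 1.59 and 1.38 CPM in line 1 and 18.2, 19.7, 11 and 13.7 CPM in line 2 (log2 fold change -3.10 ± 0.13 SE, adjusted p = 6.9e-08) with Control at 15.3 to 44.9 CPM. For Plce1 line 1 stood below the Control range and line 2 above it, and for Slfn9 line 1 stood below it while line 2 overlapped it.

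Genes of the 2-cell-like state, which a small fraction of ES cells enters at any time, were called higher in line 1 for 10 of 14 members, of which 13 were in the annotation and 12 were tested, with a median of 2.25. Over all genes tested, 6.98% were called in that direction. Labelled 2iL alone 11 members were called and labelled 48h alone 4, and the call of Tdpoz3 was lost without any library but library 2 of line 2 labelled 2iL and library 2 of line 1 labelled 48h (1.31 to 2.05). Zscan4f, the best measured of them, was at 77.8 and 66.5 CPM labelled 2iL and 5.82 and 6.15 CPM labelled 48h in line 1, and at 8.37 and 14.4 CPM labelled 2iL and 1.14 and 1.42 CPM labelled 48h in line 2 (log2 fold change 2.50 ± 0.17 SE, adjusted p = 9.4e-07), Zscan4c and Zscan4d moved alike (2.44 ± 0.20 and 2.48 ± 0.24), and these genes are near-identical copies whose reads are shared. This list differed between the Control lines as well, with 9 members called higher in Control line 2 and none in line 1 (median -1.37), and Zscan4f at 3.43 to 24.8 CPM in Control line 1 and 12 to 50.4 CPM in Control line 2. For no member was the Mta123KO difference called larger than the Control difference by edgeR (3 with an unadjusted p under 0.05) or DESeq2. Against Control, 10 members were lower in line 2 (6.47% of all genes were) and 2 lower in line 1 (8.11%), and none was higher in either. By DESeq2, 9 members were called between the lines of either genotype. The epithelial, trophoblast and imprinted lists had 1, 0 and 1 members called between the Control lines. Over all genes, 0.381% were called higher in Control line 1 and 0.983% in Control line 2. Counts this small do not set those lists apart from all genes.

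Chromatin regulators had no call between the lines over both culture labels. None of 16 NuRD subunits, 10 members of Polycomb repressive complex 2 and 6 DNA methylation and TET enzymes was called by edgeR or DESeq2, with medians of 0.04, -0.05 and -0.05. Unadjusted p was under 0.05 for 10, 8 and 2 of them. The remaining MTA reads were slightly higher in line 1 (Mta1 0.44, adjusted p = 0.00046; Mta2 0.69, adjusted p = 9.3e-05; Mta3 0.80, adjusted p = 8.1e-05), each under the fold threshold. Among the other subunits, the remodeller Chd3 (0.92, adjusted p = 1.2e-05) and the histone chaperone Rbbp7 (0.77, adjusted p = 1e-06) leaned to line 1, also under the threshold. Among libraries labelled 48h alone, Mta3 (1.02) and Chd3 (1.16) were called higher in line 1, and the interaction was called for Tet3 (1.06, lost without library 1 of line 2 under either label, 0.95 and 1.0).

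The genes were then compared by chromosome. Genes of chromosome 1 had a median log2 fold change of -0.23 between the Mta123KO lines (1532 tested, 57 called higher in line 1 and 159 in line 2), and of 0.02 between the Control lines. By median, chromosome X followed with -0.09, and the other chromosomes were within -0.05 and 0.06. Of 879 genes tested on chromosome X, 63 were called higher in line 1 and 117 in line 2. The shift lay in the proximal part: among 700 genes that start before position 90000000 (GRCm38; a limit chosen after the values were seen) the median was -0.50 and 79.9% were higher in line 2, against -0.09 and 57.8% of 832 genes beyond it. In Control line 1 against line 2, chromosome 8 had the lowest median (-0.17), with 82.3% of its genes higher in line 2. Chromosomes 6 (-0.09, 65.6%) and 16 (-0.08, 66.4%) followed. Position along these 3 chromosomes was not examined. Prdm14, Map2 and Trpa1, called higher in line 2, lie in the proximal part of chromosome 1, and the part of this shift in their differences was not tested. The fit without chromosome 1 called 1511 genes higher in line 1 and 977 in line 2, of which 1511 and 944 were also called with it.

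**Figure D4:**
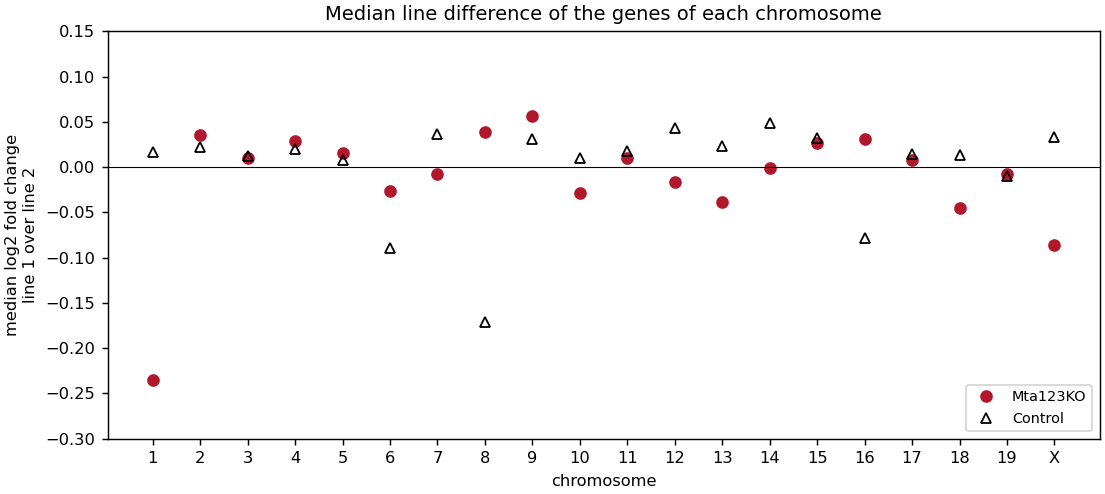
Median log2 fold change of line 1 over line 2 (y axis) over the genes tested on each chromosome (x axis), for Mta123KO (filled red circles) and Control (open black triangles). Chromosome 1 stands at -0.23 in Mta123KO, and chromosome 8 at -0.17 in Control.

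Finally, the line difference was compared between the culture labels. The interaction of line and culture was called for 322 genes in which line 1 minus line 2 was larger among libraries labelled 48h (1.39%) and for 261 in the other direction (1.13%) of 23125 tested. With spike-in scaling, which shifted the median of all genes by -0.17, the share in the first direction moved from 55.2% to 37.3%. No simple epithelium gene was called for the interaction, although 6 of 12 had an unadjusted p under 0.05. The formative and primed list had 6 of 13 members called and all in 1 direction (1.39% of all genes were), that is with line 2 relatively higher among libraries labelled 2iL. Lef1, a Wnt effector that rises when ES cells leave the naive state, was at 3.01 and 4.0 CPM labelled 2iL and 6.44 and 4.5 CPM labelled 48h in line 1, and at 27.9 and 23 CPM labelled 2iL and 3.17 and 3.14 CPM labelled 48h in line 2 (interaction 3.68, adjusted p = 8.9e-07). Otx2, a factor of the formative epiblast, was at 25.8 and 22.4 CPM labelled 2iL and 17 and 16.7 CPM labelled 48h in line 1, and at 44.2 and 37.3 CPM labelled 2iL and 5.38 and 6.52 CPM labelled 48h in line 2 (interaction 2.28, adjusted p = 8.9e-07). The pluripotency cofactor Utf1 had the same sign, at 33.5 and 29.4 CPM labelled 2iL and 18.3 and 12.7 CPM labelled 48h in line 1, and at 103 and 77.4 CPM labelled 2iL and 19.8 and 16.6 CPM labelled 48h in line 2 (1.32, adjusted p = 0.0012). For Lef1 and Otx2 the lines changed order, line 2 being higher labelled 2iL and line 1 labelled 48h, whereas for Utf1 line 2 was higher labelled 2iL and the lines overlapped labelled 48h. Control libraries labelled 2iL held Lef1 at 92.7 to 116 CPM, above both Mta123KO lines. Foxd3 (2.33), Dnmt3a (1.20) and Zic2 (1.29; 0.99 and not called without library 2 of line 2 labelled 48h) were the other members called with Pou3f1 (1.10), whose call was lost without library 2 of line 1 or library 1 of line 2 labelled 2iL, library 2 of line 1 labelled 48h, or either line 2 library labelled 48h (0.81 to 1.20).

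Among the naive genes, Tfcp2l1 showed the opposite sign, at 225 and 213 CPM labelled 2iL and 734 and 702 CPM labelled 48h in line 1, and at 130.2 and 128 CPM labelled 2iL and 1043 and 1042 CPM labelled 48h in line 2 (interaction -1.27, adjusted p = 7.1e-07), so that its step between culture labels was smaller in line 1. Nr0b1 was at 5.47 and 5.11 CPM labelled 2iL and 14 and 11.3 CPM labelled 48h in line 1, and at 14.7 and 15 CPM labelled 2iL and 13.4 and 8.69 CPM labelled 48h in line 2 (interaction 1.71, adjusted p = 0.00032). Of the imprinted genes, Cdkn1c (1.76, adjusted p = 5.4e-05) and Peg10 (1.55, adjusted p = 2.9e-06) had a larger line difference among libraries labelled 48h. By size, the 5 genes furthest in that direction were Cdh9, Plxna4, Lgr5, Enox1 and Lef1 (3.68 to 4.36), and the 5 in the other Aqp9, Clec10a, Gsc, Krtdap and Ffar2 (-6.30 to -2.97). Enox1 was at 8.14 and 8.63 CPM labelled 2iL and 13.3 and 9.78 CPM labelled 48h in line 1, and at 60.1 and 68.5 CPM labelled 2iL and 7.95 and 6.11 CPM labelled 48h in line 2 (3.68, adjusted p = 2.3e-07), while Aqp9, a water and glycerol channel, was at 2.59 and 2.06 CPM labelled 2iL and 1.29 and 1.3 CPM labelled 48h in line 1, and at 0 and 0.0861 CPM labelled 2iL and 2.03 and 2.28 CPM labelled 48h in line 2. Apart from Enox1 and Lef1, these genes were under 7 CPM in every Mta123KO library. The calls of Gsc (without library 1 of line 1 or of line 2 labelled 2iL, -2.42 and -3.21), Lgr5 (without library 2 of line 2 labelled 2iL, 3.68) and Ffar2 (without library 1 of line 1 or library 2 of line 2 labelled 2iL, or library 2 of either line labelled 48h, -2.44 to -2.80) were lost with single libraries.

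**Figure D5:**
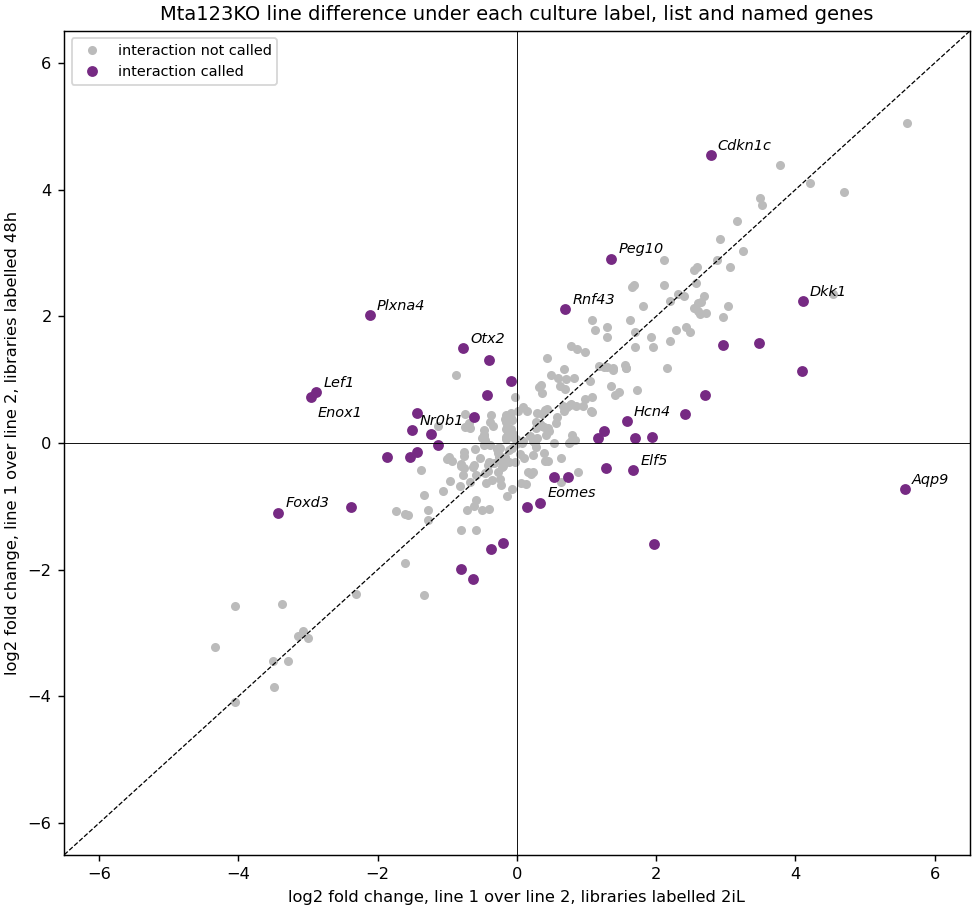
Log2 fold change of Mta123KO line 1 over line 2 in libraries labelled 2iL (x axis) and labelled 48h (y axis), each from a fit of the 4 libraries of that label, for the list and named genes tested under both. Purple points are genes with a called interaction, grey points the others, and the dashed line marks equal differences. Lef1, Enox1 and Plxna4 lie upper left, where line 2 is higher labelled 2iL and line 1 labelled 48h, and Aqp9 lies far right.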

How the data were processed

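RNA was sequenced from Mta123KO and Control mouse ES cells. Per the study's methods, the authors prepared directional libraries with 1 of 2 kits (which kit made which library is not given in the sources used here), trimmed reads with Trim Galore, aligned them to GRCm38/mm10 with TopHat2 and counted them per Ensembl gene with featureCounts; they used DESeq2 for their own tests. The deposited values are raw read counts per gene for 48709 genes and 92 spike-in RNAs. Whether counting used strand is not given in the sources used here.

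Here, 16 libraries were analysed (8 a genotype, 4 a line); the other libraries of the series were not used. Groups were taken from the sample labels. Spike-in rows, 0.733% to 1.0% of counts in Mta123KO, were left out of library sizes and tests. Gene names and positions came from GENCODE vM21 (48349 genes matched by Ensembl identifier). Counts were scaled by TMM, filtered by expression and tested by edgeR (4.0.16, R 4.3.3) with the quasi-likelihood F test, 2-sided, with Benjamini-Hochberg adjustment over all genes tested. The line comparisons used culture as a block. The test against the Control line difference took the larger p of both ways of matching the lines, and the interaction asked whether the line difference differed between culture labels. Tables were built with Python 3.11.15. Scripts were tested on simulated counts with known changes. Gene totals of 37855790 to 57602285 per library set the precision for low genes. The libraries of a line and culture were not duplicates of each other (chi-square per gene of 6.32 to 19.4).

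Genes named are members of 23 lists that were called or on which a list turns, the 10 protein-coding genes with the largest called change in each direction that averaged 1 CPM or more in the higher line and had both libraries of 1 line above both of the other under each culture label, the 5 such genes in each direction for the interaction, lineage genes named by the study, and the Mta genes. Tfap2a, Tfap2c, Ets2, Kcnq1ot1, Grb10, Igf2r, Chd3, Rbbp7, Klf2, Klf4, Utf1, Cdh1 and Epcam were added after values were seen. The members and lists were chosen with earlier results of these data known. Alternatives were DESeq2 (1.42.0), no filter, spike-in scaling, no fold threshold, no culture block, each culture label alone, a single fit of 16 libraries, summed libraries, chromosome 1 left out, the library number as a block, an additive model, and each library left out in turn. A few genes that these rules select are not reported here.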

Additional observations from a re-analysis of the deposited data

Results flagged for a closer look

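The difference between the Mta123KO lines itself differed between the culture labels for 48 genes that belong to a list or are named by size, by the interaction test in edgeR (adjusted p under 0.05 and an absolute value above 1). Values are line 1 minus line 2 in libraries labelled 48h, minus the same in libraries labelled 2iL, in log2. Among pluripotency genes the values were 3.68 for Lef1, 2.33 for Foxd3, 2.28 for Otx2, 1.29 for Zic2, 1.20 for Dnmt3a, 1.10 for Pou3f1, 1.71 for Nr0b1, 1.32 for Utf1 and -1.27 for Tfcp2l1. Among trophoblast and primitive endoderm genes they were -2.10 for Elf5, -1.28 for Eomes, -1.61 for Gata4, -1.52 for Lama1 and 1.37 for Hnf4a, and the gastrulation gene Gsc had -3.52. Signalling genes gave 3.70 for Lgr5, 1.64 for Notum, 1.42 for Rnf43, -1.05 for Axin2, -1.87 for Dkk1, -1.96 for Cdx1, -1.19 for Bmp4, -1.68 for Id3 and 1.72 for Lefty1. Imprinted genes gave 1.76 for Cdkn1c, 1.55 for Peg10 and -1.84 for Dio3, and the chromatin enzyme Tet3 gave 1.06.

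Muscle and mesenchyme genes gave -1.90 for Acta2, -1.40 for Actc1, -1.16 for Des, 1.38 for Myh3, -1.30 for Thy1 and -1.07 for Twist1, and the channel gene Hcn4 gave -1.23. Germline genes gave 1.91 for Mael, 1.02 for Tdrd1, -1.08 for Tex101 and -1.37 for Sycp1. The 2-cell genes Usp17la (-1.94) and Tdpoz1 (-7.82) rest on low counts, Tdpoz1 being at 0 in the line 2 libraries labelled 2iL and at most 0.339 CPM elsewhere, so that its fitted value depends on the prior count. Genes named by size gave 4.36 for Cdh9, 4.14 for Plxna4, 3.68 for Enox1, -6.30 for Aqp9, -3.56 for Clec10a, -2.97 for Krtdap and -2.97 for Ffar2.

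Single libraries decided 20 of these calls. In the same scale, the call of Id3 was lost without library 1 of line 2 labelled 48h (-0.96), that of Thy1 without library 2 of line 1 labelled 48h (-0.98), and that of Zic2 without library 2 of line 2 labelled 48h (0.99). Lgr5 was lost without library 2 of line 2 labelled 2iL (3.68), Axin2 without that library or library 1 of line 1 labelled 2iL (-0.92 and -0.90), and Gsc without library 1 of either line labelled 2iL (-2.42 and -3.21). Tet3 was lost without library 1 of line 2 under either label (0.95 and 1.0). Bmp4 was lost without library 1 of line 1 under either label or library 1 of line 2 labelled 48h (-1.06 to -0.97), and Tdrd1 without library 2 of line 2 labelled 2iL, library 2 of line 1 labelled 48h or library 1 of line 2 labelled 48h (0.95 to 0.98). Acta2 was lost without any library but library 1 of line 1 labelled 2iL (-2.36 to -1.54), and Gata4 without any but library 2 of line 1 labelled 2iL (-1.83 to -1.34). Myh3 was lost without any but library 1 of line 2 labelled 2iL and library 2 of line 2 labelled 48h (1.07 to 1.56), and Usp17la without any but library 2 of line 2 labelled 2iL and library 1 of line 1 labelled 48h (-2.0 to -1.41). Pou3f1 was lost without 5 libraries (library 2 of line 1 and library 1 of line 2 labelled 2iL, library 2 of line 1 and both of line 2 labelled 48h; 0.81 to 1.20), and so was Twist1 (library 1 of line 1 and library 2 of line 2 labelled 2iL, both of line 1 and library 1 of line 2 labelled 48h; -1.07 to -0.92). Of those lost without any of 4 libraries, Ffar2 depended on library 1 of line 1 and library 2 of line 2 labelled 2iL and library 2 of each line labelled 48h (-2.80 to -2.44), and Hnf4a on library 2 of each line labelled 2iL, library 2 of line 1 and library 1 of line 2 labelled 48h (1.0 to 1.31). Lefty1 and Tex101 depended on library 1 of line 1 under either label, library 2 of line 2 labelled 48h and a line 2 library labelled 2iL, library 2 for Lefty1 (1.18 to 1.47) and library 1 for Tex101 (-0.96 to -0.85). Tdpoz1 depended on library 2 of line 1 and both of line 2 labelled 2iL and library 1 of line 2 labelled 48h (-7.84 to -7.49).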

How the results depend on the processing

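Between the Mta123KO lines, the counts of calls were within 1.5 times of 1614 and 1103 under DESeq2 (1545 and 996), no filter, spike-in scaling, either culture label alone, a single fit of 16 libraries, summed libraries and without chromosome 1. Without the culture block they were 897 and 670. Without the fold threshold they were 5467 and 5115, and 702 and 776 between the Control lines, 2214 and 1822 in the test against the Control difference, 1388 and 828 for the interaction, 7208 and 6881 for line 1 against Control, and 6463 and 5879 for line 2 against Control. The Control line counts (86 and 222) were 11 and 11 without the culture block, 53 and 57 in libraries labelled 48h alone, 53 in the first direction labelled 2iL alone, and 349 in the second with no filter. Spike-in scaling left 283 genes higher in line 2 in the test against the Control difference and 156 interaction genes with the larger line difference labelled 48h. The cause of these moves was not tested.

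Leaving out 1 library gave 1547 to 1707 and 1059 to 1132 calls between the Mta123KO lines, 68 to 93 and 112 to 220 between the Control lines (112 without library 2 of line 2 labelled 2iL and 146 without library 1 of line 1 labelled 2iL), 624 to 689 and 449 to 499 against the Control difference, 256 to 301 and 183 to 246 for the interaction, 3631 to 3895 and 1830 to 2007 for line 1 against Control, and 2890 to 3091 and 1431 to 1555 for line 2. Distances between lines were 0.782 to 0.797 in Mta123KO and 0.531 to 0.548 in Control. Signs reversed for the uncalled genes Eomes (0.34), Esrrb (0.21) and Nanog (0.12) labelled 2iL alone, Elf5 (-0.43) and Nes (-0.29) labelled 48h alone, and Nes (-0.061 to 0.14) as single libraries were left out. The calls of Sox11, Dazl and Dusp4 were lost with spike-in scaling, and those of Lgr5, Postn, Tdpoz3 and Dusp4 with DESeq2. Among list and named genes, 37 lost their call without the culture block, 10 with summed libraries (Lgr5, Hcn4, Sox3, Gata6, Lhx1, Cdx1 and Dusp4 among them), 4 in the single fit, 2 with no filter and 2 with the library number as a block. Of the 48 interaction genes, 9 lost theirs with DESeq2, 9 with spike-in scaling and 2 with that block. Labelled 48h alone, Hcn4, Esx1, Cldn4, Col4a2, Sox11, Postn, Usp17la, Plagl1, Cdx1, Bmp7 and Dusp4 were not called, and labelled 2iL alone, Gata6, Lama1, T, Myl4, Dazl, Sgce, Rnf43 and Bmp4. Calls were gained labelled 48h alone by Mta3, Tfap2a, Ets2 and Chd3, labelled 2iL alone by Elf5 and Utf1, and with spike-in scaling by Ets2 and Chd3.

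With the library number as a block, 1529 and 1020 genes were called between the Mta123KO lines, of which 1513 and 1008 were also called without it, and 113 and 305 between the Control lines. No label ties the numbers to a shared batch or day, and 2 pairs per culture are too few to decide it. Deviations of same-numbered libraries correlated between the Mta123KO lines by -0.018 labelled 2iL and 0.037 labelled 48h across genes, and by 0.12 and 0.26 between the Control lines. Depth limits genes under about 0.5 CPM, such as Postn, Lhx1 and Tdpoz1.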

Other observations

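Each Mta123KO line was also set against the same 8 Control libraries, so the following counts share their controls. Over all genes tested, 15.6% were higher and 8.11% lower than Control in line 1, and 12.6% and 6.47% in line 2. Of 14 early neural genes, 12 of them tested, 6 were lower in line 1 and 5 in line 2, with Sox1, Pax6 and Cdh2 in each, and none was higher. Of 14 germline genes, all tested, 5 were higher and 2 lower in line 1 (7 not called), and 8 were higher and 1 lower in line 2, with Ddx4, Tex101, Piwil2, Tdrd1 and Tdrd9 higher in each. Of 12 blood and endothelial genes, 10 of them tested, 5 were higher and 3 lower in line 1, and 6 were higher and 2 lower in line 2, the haematopoietic factors Tal1 and Lmo2 being lower in each.

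Among the genes furthest apart between the lines, Nkx2-3, a homeobox factor of gut mesoderm, was at 3.6, 2.96, 0.462 and 0.286 CPM in line 1 and 0.121, 0.151, 0.134 and 0.0183 CPM in line 2, with 0 to 0.0467 CPM in Control. Nnmt, a methyltransferase that uses S-adenosylmethionine, was at 0.276, 0.249, 4.25 and 4.79 CPM in line 1 and 0.0243, 0, 0.335 and 0.201 CPM in line 2, with 0.040 to 4.78 CPM in Control. In the other direction, Inhbe, an activin subunit, was at 0.254, 0.181, 0.277 and 0.22 CPM in line 1 and 2.62, 2.28, 4.65 and 2.7 CPM in line 2, with 0.222 to 1.52 CPM in Control, and Trpa1, a cation channel gene on proximal chromosome 1, was at 0.89, 0.836, 2.29 and 3.12 CPM in line 1 and 8.81, 8.86, 16.3 and 15.4 CPM in line 2, with 0.519 to 4.38 CPM in Control.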
